A study of Mus musculus with 6 samples.

Results

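The genes of major histocompatibility complex (MHC) class I peptide loading were followed in an RNA-seq experiment on cells labelled NIT-1, chosen by symbol as the 9 rows, of 54532 in the deposited gene count table, named B2m, H2-K1, H2-D1, Tap1, Tap2, Tapbp, Tapbpl, Erap1 and Nlrc5. In EV_Tm cells Tapbp, B2m and Nlrc5 were higher than in PBS_Tm cells, by 1.42-fold, 1.11-fold and 1.13-fold. Tapbpl, Tap1 and Tap2 were lower in EV_Tm cells, by 1.46-fold, 1.26-fold and 1.21-fold. The class I heavy chains H2-K1 and H2-D1 (1.17-fold and 1.15-fold) and the peptidase Erap1 (1.05-fold) did not pass the test. These heavy chains had larger estimates than B2m and Nlrc5, at far lower counts. Added up with related rows, the class I heavy chains were higher in EV_Tm (edgeR, log2 fold change 0.25, adjusted p = 0.00836). That call and the call of Nlrc5 were lost without PBS_Tm replicate 2, and the call of Tap2 was lost without PBS_Tm replicate 1.

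EV_Tm cells had been given hucMSC-EVs, which are vesicles shed by mesenchymal stem cells of the human umbilical cord, over 16 h, and PBS_Tm cells had been given PBS for those 16 h. Both groups then received Tm for 8 h. Tm is not spelled out in the labels and is read here as tunicamycin, which blocks N-linked glycosylation and so causes endoplasmic reticulum (ER) stress. Each group held 3 libraries of total RNA, and no library of cells without Tm was analysed here. The PBS_Tm samples carry the labels ERS group, Ctrl and none treated, and the series' design text was followed in taking them as given PBS and then Tm. NIT-1 is an insulinoma line from NOD mice that carry a large T antigen under the insulin promoter, and the labels call it a beta cell. The labels do not tell whether the 3 libraries of a group are separate cultures, and p-values therefore cover the spread between these libraries, which may be technical.

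Class I molecules show peptides of the cell's own proteins to CD8 T cells. The proteasome and cytosolic peptidases cut the peptides, the TAP transporter carries them into the ER, and there tapasin, calreticulin and the disulfide isomerase ERp57 hold an empty heavy chain and its light chain, beta-2 microglobulin, at the transporter until a peptide fits. Raised class I on beta cells is a known feature of islets in autoimmune diabetes.

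The libraries held 28654248 to 32550268 counts, and the lowest member count in any library was 286. Levels are given as CPM, the count per 1000000 counts, after scaling of library sizes by TMM, and per length as RPKM, the CPM per kilobase of gene length. None of 10 beta cell markers reached the level needed for a test: 7, among them Ins2, Iapp and Pdx1, had 0 counts in every library, and Ins1 had 1 count over the 6 libraries together. These values go against the beta cell label, and the cells are called here by their labels only. Leukocyte markers were checked because leukocytes carry much class I. Of 16, Cd3g, Cd8a and Tyrobp had 0 counts in every library, and Ptprc had 4 counts in EV_Tm replicate 1 and 0 in the other 5 libraries. Their summed level was 125 to 131 CPM in EV_Tm and 78.4 to 89.8 CPM in PBS_Tm, of which Fcer1g made 114 ± 3.38 and 74.3 ± 6.19 CPM (SD, n = 3 each). Fcer1g and Cd68 were the 2 of 5 tested leukocyte markers that were higher in EV_Tm, and their part in the results was not tested. Cd68 lost its call by DESeq2 and limma-voom and without EV_Tm replicate 2 or 3 or PBS_Tm replicate 2 (0.27 without the last, adjusted p = 0.272). Endothelial markers summed to 37.0 to 38.03 CPM in EV_Tm and 38.1 to 39.5 CPM in PBS_Tm, with Kdr, Emcn and Cldn5 at 0 throughout and 1 of 4 tested lower. Fibroblast markers summed to 17.4 to 20.3 CPM in EV_Tm and 22.7 to 23.9 CPM in PBS_Tm, and of 4 tested 1 was higher and 2 were lower. These marker counts stand beside 22.6% of all tested genes higher in EV_Tm and 24.7% lower.

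All 9 members passed the filter on low counts. By edgeR's quasi-likelihood test with Benjamini-Hochberg adjustment over 16844 genes, 6 of the 9 (66.7%) were called at an adjusted p under 0.05, beside 47.4% of all genes tested. Of the members 3 were higher in EV_Tm, beside 22.6% of all tested genes, and 3 were lower, beside 24.7%. The groups did not overlap for 7 members (77.8%), beside 54.5% of all tested genes, and the exceptions were H2-D1 and Erap1. Every EV_Tm library lay above every PBS_Tm library for 4 members, beside 26.6% of all tested genes, and below for 3, beside 27.9%. The median log2 fold change of the members was 0.16, beside 0.01 over all tested genes. Their median absolute log2 fold change was 0.22, beside 0.28 over all tested genes and 0.40 over the called ones, so that the members' changes were modest within this comparison. In bulk RNA, fewer cells of a type and less RNA per cell cannot be told apart.

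**Figure D1:**
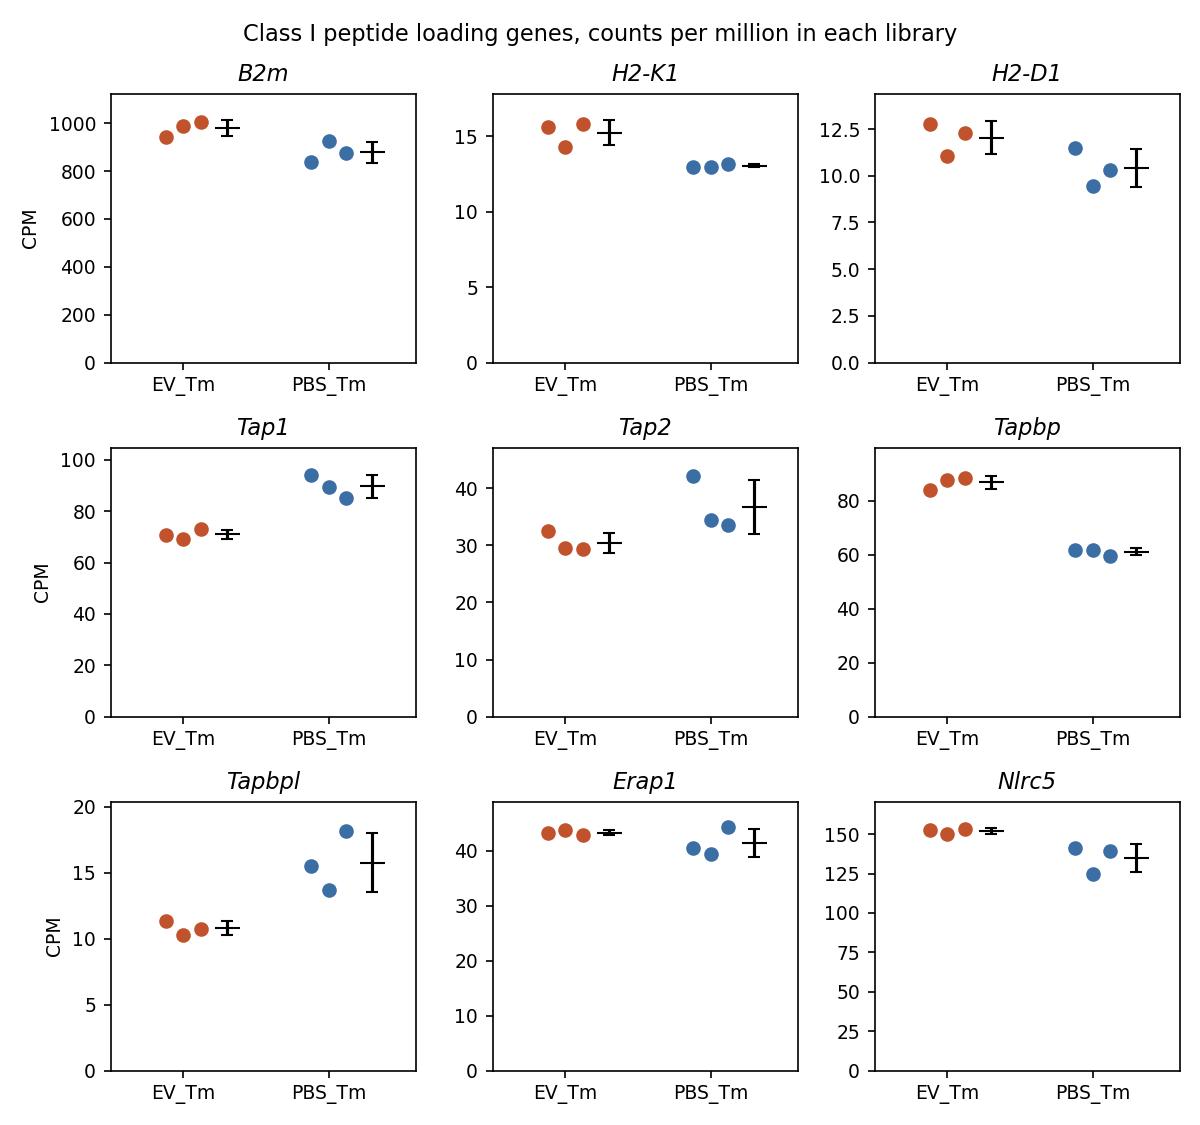
Level of each class I loading gene in every library, in TMM-scaled CPM (vertical axes start at 0), for EV_Tm (left in each panel) and PBS_Tm; points are libraries, and the bar beside them is the mean ± SD (n = 3). Every EV_Tm point lies above every PBS_Tm point for B2m, H2-K1, Tapbp and Nlrc5, and below for Tap1, Tap2 and Tapbpl.

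Per length, the members covered a wide range of levels. B2m averaged 1081 ± 75.7 RPKM over the 6 libraries (SD) and ranked above 99.9% of the tested genes. Tapbp followed with 22.4 ± 4.29 RPKM, then Nlrc5 with 16.9 ± 1.29, Tap1 with 14.7 ± 1.94 and Tap2 with 8.89 ± 1.24. Erap1 averaged 5.82 ± 0.27 RPKM, Tapbpl 5.64 ± 1.32, H2-K1 5.42 ± 0.50 and H2-D1 4.36 ± 0.47, near the middle of the tested genes. In this order the library values of Nlrc5 and Tap1 overlapped, as did those of Erap1 and Tapbpl and those of Tapbpl and H2-K1. The other neighbours did not overlap, although the lowest Tapbp value and the highest Nlrc5 value were both 18.1 RPKM, and the lowest H2-K1 value (4.98 RPKM) was just above the highest H2-D1 value (4.96 RPKM).

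**Figure D2:**
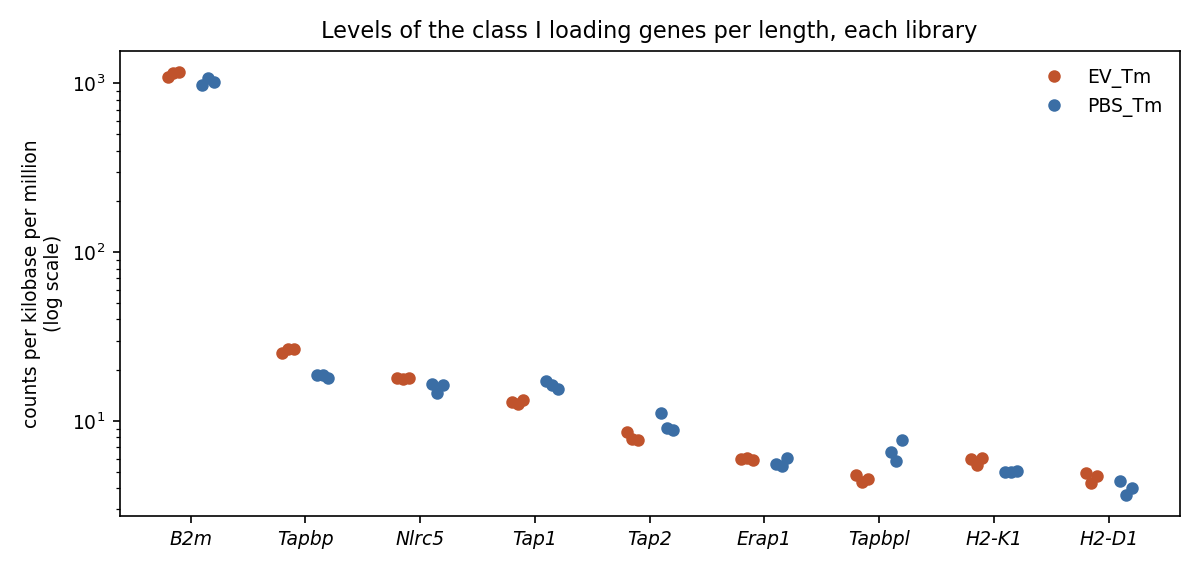
Level per length of each class I loading gene in every library, in RPKM on a log axis, ordered from the highest mean over the 6 libraries to the lowest; EV_Tm libraries are left of PBS_Tm libraries. B2m lies near 1081 RPKM, and the 8 other genes between 3.67 and 26.8 RPKM.

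B2m (ENSMUSG00000060802, chromosome 2, 122147686 to 122153083, plus strand) encodes beta-2 microglobulin, the light chain of class I molecules. It reached 943, 989 and 1007 CPM in EV_Tm, against 838, 924 and 875 CPM in PBS_Tm. All EV_Tm libraries were above all PBS_Tm libraries, by a narrow gap. The log2 fold change was 0.16 ± 0.04 (SE, 95% interval 0.08 to 0.24, adjusted p = 0.00149), a change smaller than that of most tested genes, since 29.7% of them had a smaller absolute value. B2m lies inside the span of Patl2 on the opposite strand and shares no exonic base with it, and Patl2 had at most 10 counts in a library.

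H2-K1 (ENSMUSG00000061232, chromosome 17, 33996017 to 34000333, minus strand) encodes the K heavy chain, one of the classical chains that present peptide to CD8 T cells. It had 15.6, 14.3 and 15.8 CPM in EV_Tm, against 13.0, 13.0 and 13.2 CPM in PBS_Tm, and the groups did not overlap. Its log2 fold change of 0.22 ± 0.09 (95% interval 0.03 to 0.42) had an adjusted p of 0.0553, just short of the threshold, and it passed with scaling by library size alone (adjusted p = 0.0245) and with a filter at 1 CPM in 3 libraries (adjusted p = 0.0363). H2-D1 (ENSMUSG00000073411, chromosome 17, 35262730 to 35267499, plus strand), the D heavy chain, had 12.8, 11.1 and 12.3 CPM in EV_Tm, against 11.5, 9.48 and 10.3 CPM in PBS_Tm. The groups overlapped, and the log2 fold change of 0.21 ± 0.11 (95% interval -0.02 to 0.44) did not pass (adjusted p = 0.129). With an interval that reaches 0.44, the gene was not shown to have stayed level.

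Heavy chain genes are near copies of each other, so reads can be divided between rows in a way the deposited counts do not show. The 11 rows of H2-K1, H2-D1, H2-K2 and the H2-Q genes were therefore added up before the fit. Their sum was 32.4, 29.6 and 32.8 CPM in EV_Tm, against 28.2, 25.2 and 26.4 CPM in PBS_Tm, with no overlap. Its log2 fold change was 0.25 ± 0.08 (adjusted p = 0.00836), and without PBS_Tm replicate 2 it was 0.20 and did not pass (adjusted p = 0.0599). The table's positions fit GRCm38, a C57BL/6 sequence, and NIT-1 comes from NOD mice, so if the label holds, reads from heavy chain alleles that differ between the strains may be undercounted, which was not tested. How reads with several positions were handled is not given, and if they were dropped, the sum does not restore them. With those limits, B2m stood 183 to 216 times above H2-K1 per length in the 6 libraries, and 60.4 to 71.1 times in counts. The ratio of B2m to H2-K1 plus H2-D1 per length was 100, 118 and 108 in EV_Tm, against 103, 124 and 112 in PBS_Tm, and the groups overlapped (log2 difference -0.06, exact permutation test, two-sided, p = 0.6, where the smallest p that 3 against 3 allows is 0.1).

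The sequence before the transcript start of B2m, H2-K1 and H2-D1 is shown because these genes carry the regulatory module for which class I genes are known. Each is the 250 bases before the RefSeq transcript start (GRCm38.p6), on the gene's own strand. The H2-D1 window lies inside the deposited span of that gene. Capitals mark matches to 4 motifs, each searched on both strands. They were GGG, 2 bases of any kind, TT, 1 base of any kind and CC (a kB-like site), AANNGAAA (the core bound by interferon regulatory factors), TGACG (part of the site of CREB and ATF factors) and CCAAT (the Y box bound by NF-Y, read as ATTGG on the other strand).
B2m, chr2:122147437-122147686, plus strand: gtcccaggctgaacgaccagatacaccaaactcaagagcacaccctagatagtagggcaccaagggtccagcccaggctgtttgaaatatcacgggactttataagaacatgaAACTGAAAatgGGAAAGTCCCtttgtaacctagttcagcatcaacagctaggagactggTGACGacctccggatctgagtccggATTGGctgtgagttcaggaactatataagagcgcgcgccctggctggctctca
H2-K1, chr17:34000348-34000597, minus strand: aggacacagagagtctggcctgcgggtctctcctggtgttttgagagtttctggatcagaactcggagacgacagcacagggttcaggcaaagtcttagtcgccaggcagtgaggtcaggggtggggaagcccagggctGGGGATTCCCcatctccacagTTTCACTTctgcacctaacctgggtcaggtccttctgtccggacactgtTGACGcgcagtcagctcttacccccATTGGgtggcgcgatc
H2-D1, chr17:35262844-35263093, plus strand: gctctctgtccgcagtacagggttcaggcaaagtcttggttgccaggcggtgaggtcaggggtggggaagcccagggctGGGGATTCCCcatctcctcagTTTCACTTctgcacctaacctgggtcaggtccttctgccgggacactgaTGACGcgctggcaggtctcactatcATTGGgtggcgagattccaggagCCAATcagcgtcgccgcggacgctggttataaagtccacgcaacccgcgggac
All 3 windows held all 4 motifs. In each of them TGACG was followed after exactly 20 bases by ATTGG, and 0.0913% of 32851 promoter windows of the same length hold that arrangement, which was searched after the matches had been seen. Singly, the kB-like motif occurs in 4.11% of the windows, the interferon regulatory core in 21.3%, TGACG in 17.8% and CCAAT in 33.8%. In H2-K1 and H2-D1 the kB-like match preceded the interferon regulatory core by 21 bases and the core preceded TGACG by 49 bases, counted between first bases, and an alignment of the pair had 161 identical positions of 177 (91.0%). B2m had the first motifs in the other order, with the interferon regulatory core at -137 and the kB-like match at -126. H2-D1 had a further CCAAT at -53. A match describes letters and is not evidence of a bound factor.

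**Figure D3:**
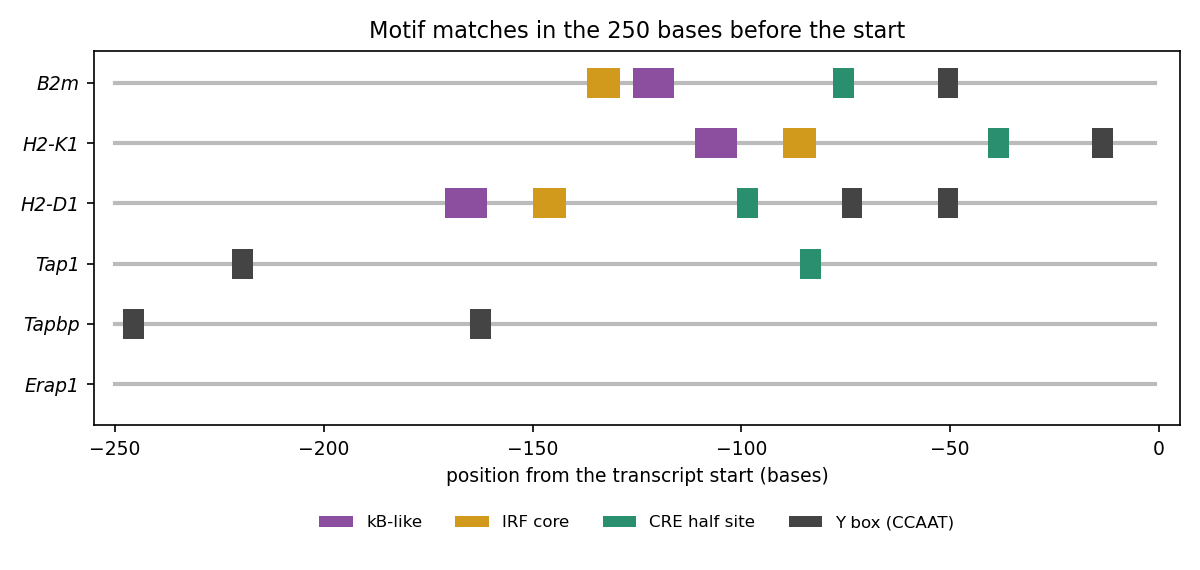
Motif matches in the 250 bases before the transcript start of the 6 members that had a promoter entry; the horizontal axis is the position from the start in bases, and each coloured box is a match on either strand. B2m, H2-K1 and H2-D1 hold all 4 motifs, with TGACG and CCAAT at the same distance in all 3, and Erap1 holds none.

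Tap1 and Tap2 encode the 2 chains of the transporter that moves peptides from the cytosol into the ER, and both were lower in EV_Tm. Tap1 (ENSMUSG00000037321, chromosome 17, 34187553 to 34197225, plus strand) had 70.9, 69.3 and 72.9 CPM in EV_Tm, against 94.1, 89.7 and 85.3 CPM in PBS_Tm. The groups were well apart, and the log2 fold change was -0.34 ± 0.05 (95% interval -0.44 to -0.23, adjusted p = 6.75e-06). Tap2 (ENSMUSG00000024339, chromosome 17, 34203527 to 34216321, plus strand) had 32.4, 29.5 and 29.4 CPM in EV_Tm, against 42.2, 34.5 and 33.6 CPM in PBS_Tm, where replicate 1 was the highest by far. Its log2 fold change was -0.27 ± 0.08 (95% interval -0.44 to -0.10, adjusted p = 0.0076). Without PBS_Tm replicate 1 it was -0.16 and did not pass (adjusted p = 0.0938). On the opposite strand, Tap2 shares 533 exonic bases (14.1%) with Gm15821 and 165 (4.36%) with Gm20496. Gm15821 did not pass (log2 fold change 0.11, adjusted p = 0.856), and Gm20496 was not tested. The ratio of Tap1 to Tap2 per length was 1.51, 1.62 and 1.71 in EV_Tm, against 1.54, 1.79 and 1.75 in PBS_Tm, so the groups overlapped (log2 difference -0.07, exact permutation test, two-sided, p = 0.5, smallest possible 0.1).

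Tap1 shares its promoter with Psmb9, a proteasome subunit gene that runs the other way. Their RefSeq starts lie 225 bases apart, and the Tap1 window is shown because the start of Psmb9 lies within it.
Tap1, chr17:34187306-34187555, plus strand: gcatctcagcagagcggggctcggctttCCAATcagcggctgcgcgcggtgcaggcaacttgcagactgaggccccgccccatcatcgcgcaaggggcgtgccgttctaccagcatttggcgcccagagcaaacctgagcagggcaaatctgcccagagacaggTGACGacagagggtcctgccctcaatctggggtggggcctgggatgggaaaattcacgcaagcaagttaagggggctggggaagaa
It held CCAAT at -222 and TGACG at -86 (capitals, as above) and neither the kB-like motif nor the interferon regulatory core. Psmb9 had 21.0, 19.7 and 18.9 CPM in EV_Tm, against 19.1, 17.9 and 18.0 CPM in PBS_Tm, and did not pass (log2 fold change 0.12 ± 0.09, adjusted p = 0.269). The ratio of Tap1 to Psmb9 per length was 2.25, 2.35 and 2.57 in EV_Tm, against 3.29, 3.35 and 3.17 in PBS_Tm. Every EV_Tm ratio was below every PBS_Tm ratio, with a log2 difference of -0.45 and an exact permutation p of 0.1, the smallest that 3 against 3 allows. That ratio was chosen after the values had been seen. The genes overlap by 212 exonic bases (3.87% of those of Tap1) on opposite strands, and the strand setting of the counting is not given in the sources used here.

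Tapbp and Tapbpl encode related editors of the peptide cargo and moved in opposite directions. Tapbp (ENSMUSG00000024308, chromosome 17, 33915899 to 33929288, plus strand) encodes tapasin, which bridges the empty class I molecule to TAP. It had 83.9, 87.8 and 88.4 CPM in EV_Tm, against 61.8, 61.8 and 59.6 CPM in PBS_Tm. The spread within each group was small beside the gap between them, and the log2 fold change was 0.50 ± 0.05 (95% interval 0.40 to 0.61, adjusted p = 8.89e-09). Tapbpl (ENSMUSG00000038213, chromosome 6, 125223933 to 125231860, minus strand) encodes TAPBPR, which edits peptides away from the transporter. It had 11.3, 10.3 and 10.7 CPM in EV_Tm, against 15.5, 13.7 and 18.1 CPM in PBS_Tm. All EV_Tm libraries were below all PBS_Tm libraries, which scattered more, and the log2 fold change was -0.55 ± 0.11 (95% interval -0.77 to -0.32, adjusted p = 0.000181). These were the largest absolute changes of a member in each direction, larger than those of 73.6% and 76.5% of the tested genes.

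Set against each other, Tapbp stood above Tapbpl per length by 5.28, 6.09 and 5.89 times in EV_Tm, against 2.85, 3.22 and 2.35 times in PBS_Tm. The ratio was 2.06-fold higher in EV_Tm (log2 difference 1.05), a ratio also chosen after the values had been seen. Its exact permutation p (two-sided) was 0.1, the smallest possible. Since every EV_Tm library was higher for Tapbp and lower for Tapbpl, that p was fixed in advance and is no further support. Neighbours on the chromosome did not all move alike. Zbtb22, which overlaps the deposited span of Tapbp on the same strand by 149 exonic bases, had a log2 fold change of 0.01 (adjusted p = 0.963). Gm19412, on the opposite strand, shares 904 exonic bases (24.9% of those of Tapbp) and had 0 counts in every library. How reads in that stretch were assigned is not given, so the level of Tapbp per length may be affected. Daxx, 309 bases before the span, was lower (-0.14 ± 0.06, adjusted p = 0.0385), a call that was lost under 9 alternatives, while Rgl2, 254 bases beyond Tapbp, was higher in EV_Tm by 0.29 ± 0.05 (adjusted p = 4.78e-05). Tapbpl lies inside the span of Vamp1, a vesicle SNARE gene on the opposite strand, with no shared exonic base. Vamp1 was lower in EV_Tm, at 70.3 ± 2.96 CPM against 113 ± 7.45 CPM in PBS_Tm (SD, n = 3 each, log2 fold change -0.68 ± 0.05, adjusted p = 1.04e-10). Cd27, 761 bases from Tapbpl and on its strand, was lower as well, at 5.76 ± 1.19 CPM in EV_Tm against 11.03 ± 2.72 CPM in PBS_Tm (-0.93 ± 0.16, adjusted p = 3.73e-05). Without strand information, reads of Vamp1 transcripts that fall on Tapbpl exons cannot be told apart from reads of Tapbpl.

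The window before the RefSeq start of Tapbp, which lies inside the deposited gene span, is shown as that of the member with the largest rise.
Tapbp, chr17:33919228-33919477, plus strand: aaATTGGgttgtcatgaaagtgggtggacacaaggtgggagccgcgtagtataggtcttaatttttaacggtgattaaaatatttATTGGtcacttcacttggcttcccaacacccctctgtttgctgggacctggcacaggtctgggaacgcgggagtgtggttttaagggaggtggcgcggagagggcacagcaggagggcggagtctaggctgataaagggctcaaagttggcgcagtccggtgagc
It held CCAAT, on the other strand, at -248 and -165 and none of the other 3 motifs. None of the 6 member windows held the ER stress element (CCAAT, 9 bases of any kind, CCACG), searched on both strands, which 0.113% of all windows hold.

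**Figure D4:**
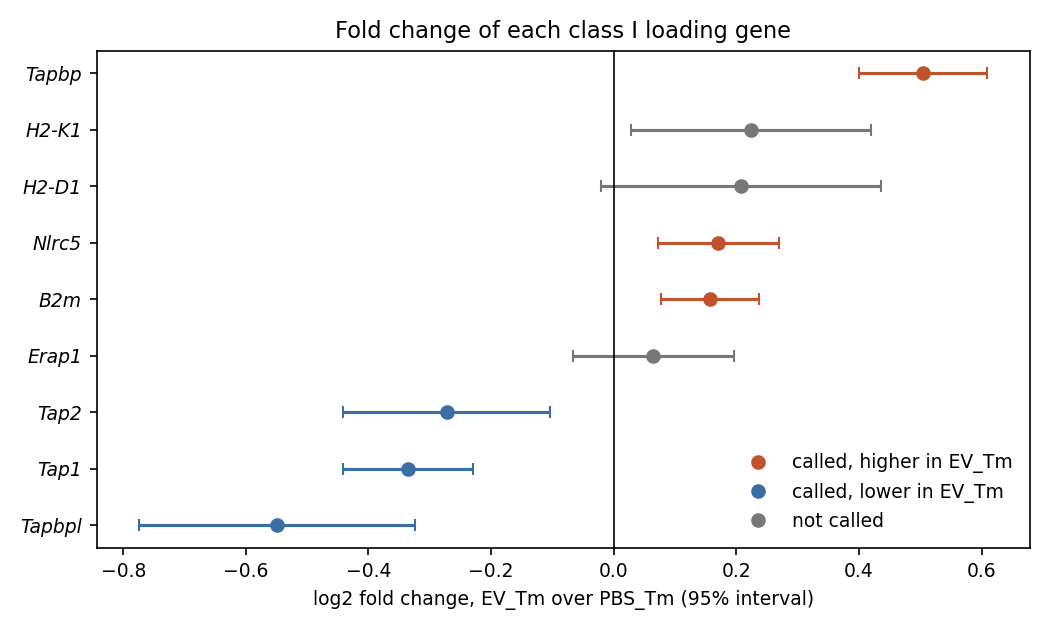
Fold change of each class I loading gene, EV_Tm over PBS_Tm on the log2 scale (horizontal axis), with 95% intervals from edgeR; colours mark calls at an adjusted p under 0.05. Tapbp (0.50) and Tapbpl (-0.55) lie at the ends, and the intervals of H2-D1 and Erap1 include 0.

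Erap1 (ENSMUSG00000021583, chromosome 13, 74639568 to 74693201, plus strand) encodes the ER aminopeptidase that trims peptides to the length class I accepts. It had 43.3, 43.8 and 42.9 CPM in EV_Tm, against 40.6, 39.4 and 44.3 CPM in PBS_Tm. The groups overlapped, and the 95% interval of the fold ran from 0.955 to 1.15 (adjusted p = 0.431). It shares 834 exonic bases (11.5%) at its 3′ end with Cast on the opposite strand, and Cast was lower in EV_Tm (log2 fold change -0.24 ± 0.05, adjusted p = 0.000211).

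Nlrc5 (ENSMUSG00000074151, chromosome 8, 94434356 to 94527272, plus strand) encodes the transactivator that acts at the class I promoter module. It had 152, 150.1 and 154 CPM in EV_Tm, against 141, 125 and 139 CPM in PBS_Tm. EV_Tm libraries lay close together above the PBS_Tm libraries, of which replicate 2 was the lowest. The log2 fold change was 0.17 ± 0.05 (95% interval 0.07 to 0.27, adjusted p = 0.0047), and without PBS_Tm replicate 2 it was 0.11 and did not pass (adjusted p = 0.0758). Its left neighbour Herpud1, an ER stress gene 38978 bases away on the same strand, was lower in EV_Tm (-3.27 ± 0.04, adjusted p = 1.69e-26). Among the members that NLRC5 is known to drive, B2m was higher in EV_Tm and Tap1 was lower. H2-K1 and H2-D1 did not pass, with log2 fold changes (0.22 and 0.21) above that of B2m (0.16). Whether Nlrc5 had a part in these changes was not tested.

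Over the 6 libraries, the tested genes outside the set whose log2 CPM followed B2m most closely were Gm15012 (Pearson r = 0.993), Tpm4 (r = 0.991) and Ypel4 (r = 0.989). The 6 points include the difference between groups, so these values describe likeness only.

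Calr and Pdia3, which encode partners in the loading complex, were much lower in EV_Tm. They belong to a wider list of 14 genes of ER folding and translocation, most of them not particular to class I loading. Of the 14, 10 were lower in EV_Tm, 1 was higher and 3 did not pass. The list's median log2 fold change was -0.80, beside 0.01 over all tested genes. These and the following counts stand beside 22.6% of all tested genes higher and 24.7% lower. Calr, calreticulin, had 842, 833 and 807 CPM in EV_Tm, against 3542, 3605 and 3517 CPM in PBS_Tm, a 4.30-fold lower level (log2 fold change -2.10 ± 0.03, adjusted p = 4.12e-25). Pdia3, which encodes ERp57, had 490.0, 475 and 484 CPM in EV_Tm, against 1707, 1754 and 1743 CPM in PBS_Tm, 3.59-fold lower (-1.84 ± 0.03, adjusted p = 2.11e-23). Canx, calnexin, which receives the new heavy chain before calreticulin, averaged 526 ± 16.5 CPM in EV_Tm and 1218 ± 47.6 CPM in PBS_Tm (2.32-fold lower, adjusted p = 1.51e-18). Uggt1, the glucosyltransferase known to work with TAPBPR, averaged 125 ± 10.4 CPM in EV_Tm and 261 ± 6.04 CPM in PBS_Tm (2.08-fold lower, adjusted p = 6.27e-15). The list's largest change was that of Hspa5, the chaperone BiP, at -3.40 (adjusted p = 1.72e-29), followed by Pdia6 at -2.20 (adjusted p = 1.47e-23). Bcap31, an export factor for class I, was the one gene that was higher (0.21 ± 0.05, adjusted p = 0.0014).

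Among other chains that resemble class I heavy chains, 26 of 30 listed had a row, 6 of these had 0 counts throughout and 10 were tested. Of these, 6 were higher in EV_Tm, 1 was lower and 3 did not pass, and the median log2 fold change was 0.32. Fcgrt, the heavy chain of the neonatal Fc receptor, which pairs with beta-2 microglobulin but binds no peptide, had 29.7, 29.4 and 27.2 CPM in EV_Tm, against 18.3, 17.6 and 18.0 CPM in PBS_Tm (0.68 ± 0.08, adjusted p = 1.02e-07). H2-T23, the Qa-1 chain that shows signal peptides to NK cell receptors, had 28.1, 24.2 and 27.3 CPM in EV_Tm, against 15.6, 19.8 and 16.4 CPM in PBS_Tm (0.62 ± 0.09, adjusted p = 5.55e-06). Neither gene's groups overlapped, and H2-T23, at 7.58 RPKM over all libraries, stood above H2-K1 and H2-D1, whose reads may be undercounted as stated above. Cd1d1, which presents lipids to NKT cells, averaged 16.4 ± 0.79 CPM in EV_Tm and 12.1 ± 1.86 CPM in PBS_Tm (0.44 ± 0.11, adjusted p = 0.00142). H2-T22, H2-T10 and H2-T24 were also higher, with log2 fold changes of 0.26, 0.26 and 0.65 and adjusted p of 0.0076, 0.0104 and 0.0385, and the first pair are near copies whose reads may be shared. Each lost its call without 1 library: H2-T22 without EV_Tm replicate 3 (0.22, adjusted p = 0.0619), H2-T10 without PBS_Tm replicate 3 (0.19, adjusted p = 0.0699), and H2-T24 without any of 4, at the least 0.43 without PBS_Tm replicate 2 (adjusted p = 0.191). Mr1, which presents vitamin B metabolites, was the one that was lower (-0.25 ± 0.07, adjusted p = 0.00361).

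Upstream of the transporter, the immunoproteasome list had 2 of 7 genes higher and none lower, so that 28.6% were called beside 47.4% of all tested genes. Psme2 averaged 79.0 ± 3.06 CPM in EV_Tm and 62.5 ± 11.1 CPM in PBS_Tm (0.34 ± 0.08, adjusted p = 0.00108), with 0.21 without PBS_Tm replicate 3 and an adjusted p of 0.0496 by DESeq2. Psme1 averaged 145 ± 2.36 CPM in EV_Tm and 131 ± 4.70 CPM in PBS_Tm (0.15 ± 0.04, adjusted p = 0.00723, but 0.0553 without EV_Tm replicate 2). They encode the subunits of the PA28 activator. The catalytic subunits did not pass: Psmb8 had a log2 fold change of 0.10, Psmb9 of 0.12 and Psmb10 of 0.07, with adjusted p of 0.161, 0.269 and 0.487. Of 10 cytosolic peptidases, 3 were higher, 4 were lower and 3 did not pass. Ide and Lap3, which trim or destroy peptides in the cytosol, were lower in EV_Tm, with log2 fold changes of -0.40 each (adjusted p = 5.49e-09 and 1.19e-06), and Blmh, bleomycin hydrolase, was higher, with 0.23 (adjusted p = 0.000199).

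**Figure D5:**
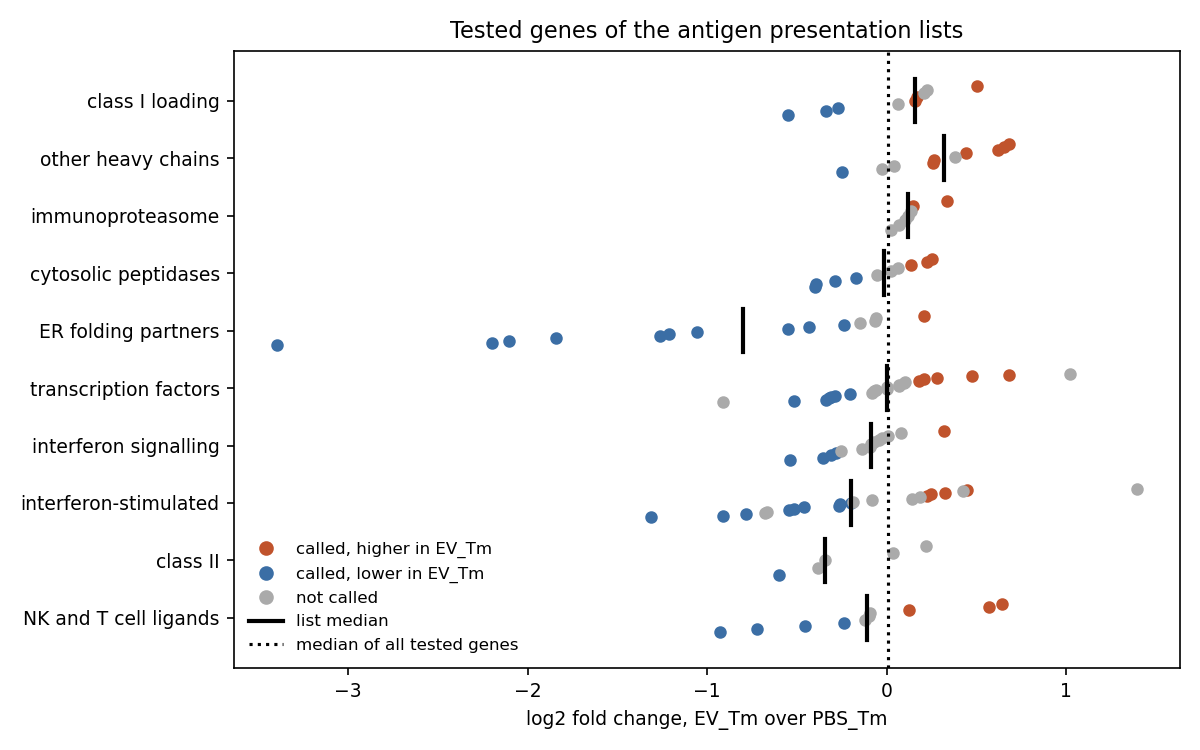
Log2 fold change, EV_Tm over PBS_Tm (horizontal axis), of every tested gene in the class I loading set and in 9 related lists (rows); colours mark calls at an adjusted p under 0.05, black bars are list medians and the dotted line is the median of all tested genes. The list of ER folding partners has the lowest median, -0.80, and the other class I heavy chains the highest, 0.32.

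Of 22 transcription factors known to act on class I genes, 5 were higher in EV_Tm, 6 were lower and 11 did not pass, with a median of 0.00, and these shares are near those of all tested genes (22.6% higher and 24.7% lower). The count of higher ones was 3 without EV_Tm replicate 1 or 3 and 2 without PBS_Tm replicate 2. Nfya, the NF-Y subunit of the CCAAT box, averaged 100.2 ± 2.05 CPM in EV_Tm and 72.0 ± 2.77 CPM in PBS_Tm (0.48 ± 0.05, adjusted p = 1.53e-08). Irf8, an interferon regulatory factor, averaged 17.1 ± 1.38 CPM in EV_Tm and 10.7 ± 1.81 CPM in PBS_Tm (0.68 ± 0.11, adjusted p = 2.39e-05). Rela, an NF-kB subunit, was lower in EV_Tm (-0.31 ± 0.05, adjusted p = 2.5e-05), and Irf1, a main driver of class I under interferon, had a log2 fold change of 0.00 (adjusted p = 0.978). Of the RFX subunits, Rfx5 and Rfxank were higher (0.21 and 0.28) and Rfxap was lower (-0.34), with adjusted p of 0.0275, 0.0281 and 0.0037. Rfx5 lost its call without EV_Tm replicate 1 or 3 or PBS_Tm replicate 2 (lowest 0.15, adjusted p = 0.168), and Rfxank without EV_Tm replicate 3 or PBS_Tm replicate 1 or 2 (lowest 0.22, adjusted p = 0.147).

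Only some interferon genes were listed, and those named next were almost silent. Ifnb1, Ifna1 and Ifnl2 had 0 counts in all libraries, and Ifng had 1 count over the 6 libraries together. Of 14 tested signalling genes, 1 was higher and 4 were lower. Ifngr2, a chain of the interferon gamma receptor, was higher (0.32 ± 0.05, adjusted p = 1.35e-05), while Ptpn2, a phosphatase that restrains cytokine signalling, was lower (-0.54 ± 0.06, adjusted p = 2.8e-08), as was Ifnar1 (-0.28 ± 0.04, adjusted p = 5.22e-06). Of 21 tested interferon-stimulated genes, 4 were higher, 9 were lower and 8 did not pass, with a median of -0.20. Bst2, tetherin, was higher (0.24 ± 0.05, adjusted p = 0.000109), and Ifi27 and the RNA sensor Ddx58 were lower (-0.26 and -0.27, adjusted p = 0.00025 and 0.000407).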

How the data were processed

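The authors trimmed adaptors and aligned to the reference with HISAT2 2.2.1, per the labels' protocols; featureCounts 2.0.6 is named in the submitters' processing notes. What the authors deposited is a table of raw counts, with 1 row per gene and 1 column per library. The deposited table also gives gene positions and lengths as other values. The notes name mm39, but 53499 of 54409 gene IDs shared with GENCODE M21 (98.3%) have GRCm38 positions, so coordinates are read as GRCm38. Of the 9 members 7 match exactly; the ends of Tapbp and H2-K1 differ and are printed as deposited. Whether counting used strand, and how reads with several positions were handled, is not given in the sources used here. Counting error alone allows a CPM of 0.0922 to 0.105 at a count of 0 (3 counts).

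EV_Tm was compared with PBS_Tm in edgeR 4.0.16 (R 4.3.3): TMM factors, filterByExpr, quasi-likelihood F test (two-sided), Benjamini-Hochberg adjustment over 16844 genes, threshold 0.05. Ratios were compared by exact permutation. RPKM used the deposited gene lengths. DESeq2 1.42.0 and limma 3.58.1 were among the alternatives. Members and gene lists were chosen with earlier results of these data known. Named were all members, the 3 genes of smallest p in each pathway list (not in the marker lists), some genes of lists with 5 or fewer calls in a direction, some neighbours by position, and the 3 closest to B2m; Uggt1, Canx, Pdia3, Psmb10, H2-T22, H2-T10, H2-T24, Irf1 and Rfxap were added for their known roles after their values were seen. Promoter sequences came from RefSeq (GRCm38.p6), which matched 6 of 9 members; Tap2, Tapbpl and Nlrc5 had no entry. Libraries of a group differed by a mean chi-square per gene above sampling noise, and all 6 were kept.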

Additional observations from a re-analysis of the deposited data

How the results depend on the processing

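The alternatives were scaling by library size alone, DESeq2 size factors, a filter at 1 CPM in 3 libraries or none, DESeq2's test, limma-voom, a replicate block and each library left out. Genes called ranged from 7080 to 8013, members higher in EV_Tm from 2 to 4 and members lower from 2 to 3; no scaling moved the median of all genes by over 0.04 (log2). Of the values for single genes and for the ratios chosen after the data were seen, 750 were unchanged and 6 newly passed. A further 30 no longer passed and 8 changed sign. Unchanged means the same sign and side of the threshold for a gene, and the same sign alone for a ratio. Among the members, Tap2 and Nlrc5 were lost, each without 1 library; the other losses were of Psme1, H2-T22, H2-T10, H2-T24, Rfx5, Rfxank, Daxx, Cpne2 and Cd68. The sign changed for Irf1 and Zbtb22, which passed under no alternative: both without a filter (-0.0081 and -0.0057), and with 1 library left out, over ranges of -0.027 to 0.052 and -0.059 to 0.034. The 6 gained were H2-K1 and H2-DMb1 (library size alone, and the 1 CPM filter), Psmb8 (library size alone) and H2-DMa (without EV_Tm replicate 3). With each library left out, the summed heavy chains ranged from 0.20 to 0.29, the transcription factors higher from 2 to 5, the class II genes lower from 1 to 2, and the NK and T cell ligands higher from 1 to 3. The log2 difference of the B2m to heavy chain ratio ranged from -0.12 to 0.0099, turning positive without PBS_Tm replicate 2. The count of class II genes higher was 1 with library size alone and 1 with the 1 CPM filter, against 0. The causes were not tested. With a replicate block, 7737 genes were called, 3 members were higher and 3 lower, and the summed heavy chains had 0.25 (adjusted p = 0.0109). The block changed no call of a member. Same-numbered libraries did not deviate together (r = -0.04, 0.02 and -0.01), so the numbers were not taken as pairs. H2-K1 and H2-D1, which did not pass, had 286 to 509 counts per library, and Tapbpl, which did, had 298 to 583.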

Other observations

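Class II genes and ligands of NK and T cell receptors were counted as well. Of 9 MHC class II pathway genes, 5 were tested, 1 was lower in EV_Tm and 4 did not pass. Cd74, the invariant chain, had 107, 108 and 109.7 CPM in EV_Tm, against 172, 162 and 158 CPM in PBS_Tm (log2 fold change -0.60 ± 0.05, adjusted p = 6.68e-11), with no overlap. The class II chains H2-Aa, H2-Ab1 and H2-Eb1 stayed under 1 CPM in every library. H2-DMb1 and H2-DMa did not pass, with log2 fold changes of 0.22 and -0.38 (adjusted p = 0.0602 and 0.214). With 1 library left out, H2-DMa ranged from -0.75 without EV_Tm replicate 3 (adjusted p = 0.023) to -0.17 without PBS_Tm replicate 1.

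Of 18 listed ligands for NK and T cell receptors, 14 had a row and 10 were tested, with 3 higher in EV_Tm, 4 lower and 3 not passing. The count of higher ones was 1 without EV_Tm replicate 2 or 3 or PBS_Tm replicate 2. Cd276, the B7-H3 checkpoint ligand, averaged 164 ± 5.07 CPM in EV_Tm and 105 ± 2.55 CPM in PBS_Tm (0.64 ± 0.04, adjusted p = 1.18e-11). Cd47, the signal that restrains phagocytes, averaged 110.1 ± 4.52 CPM in EV_Tm and 151 ± 7.19 CPM in PBS_Tm (-0.45 ± 0.05, adjusted p = 2.11e-08). Cd274, which encodes PD-L1, averaged 4.49 ± 0.32 CPM in EV_Tm and 7.42 ± 0.27 CPM in PBS_Tm (-0.72 ± 0.14, adjusted p = 0.000154), and its groups did not overlap.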
